A study of Saccharomyces cerevisiae with 4 samples.

Results

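The 10 genes described encode Saccharomyces cerevisiae enzymes of the Kennedy pathway and of the branch at phosphatidate, the precursor of membrane and storage lipids. They were chosen by name: every probe whose annotated gene symbol, or the current name of an older symbol, was CKI1, EKI1, PCT1, ECT1, CPT1, EPT1, PAH1, DGK1, CDS1 or PIS1. All 10 were measured, each by 1 probe with a value on every array, out of 4072 named genes in the table. The array annotation carries ECT1, PAH1 and DGK1 under their older symbols MUQ1, SMP2 and HSD1.

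Transcripts were compared on 4 two-colour microarrays between a strain carrying pAG305GPD-AAE13 and a control strain carrying pAG305GPD-ccdB. AAE13 is a plant malonyl-CoA synthetase, which makes malonyl-CoA from malonate; pAG305GPD is an integrating yeast vector, marked with LEU2, that drives its insert from the strong constitutive GPD (TDH3) promoter, and ccdB is the cassette of the empty vector. Both strains grew at 30 °C in SD drop-out medium, malonate was added to both at 0.2 mM when the optical density was 0.1, and both were harvested in mid-log phase, so neither a culture without malonate nor a strain without the vector was compared. Each array held 1 of 4 AAE13 cultures and 1 of 4 ccdB cultures, the AAE13 RNA carrying Cy5 on arrays 1 and 3 but Cy3 on arrays 2 and 4. The labels do not say whether the 4 cultures of a strain came from 1 transformant or several.

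Each value is a log2 ratio read as AAE13 over ccdB with the median of its array set to 0, so a gene above or below 0 is set against the typical probe of that array. The deposited array medians ran from -0.173 to 1.41. Without centring, the median of all genes lies 0.61 higher. No label states the direction. It is taken as likely because the series title and the design text both put the transgenic strain before the control. The mean correlation over all probes was 0.576 between arrays of opposite dye orientation and 0.693 between arrays of the same orientation. The sample titles name AAE13 first on arrays 1 and 3 and ccdB first on arrays 2 and 4, and ratios read in that order (Cy5 over Cy3) would need arrays 2 and 4 turned. An AAE13 effect and a dye effect shared by ratios that were never turned cannot be told apart by these correlations. The table holds ratios without spot intensities, so signal over background and transcript levels are unknown, no marker of the strains could be checked as a level, and no probe for AAE13 was analysed. The number of arrays limits the precision of every value.

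In the Kennedy pathway, choline and ethanolamine are each phosphorylated by a kinase, activated with CTP by a cytidylyl transferase, and transferred to diacylglycerol by a phosphotransferase, which gives phosphatidylcholine and phosphatidylethanolamine. The diacylglycerol comes from phosphatidate, which Pah1 dephosphorylates and which Dgk1 makes again from diacylglycerol and CTP. Cds1 instead activates phosphatidate to CDP-diacylglycerol, from which Pis1 makes phosphatidylinositol and the de novo route makes phosphatidylserine, phosphatidylethanolamine and phosphatidylcholine. In yeast, phosphatidate at the endoplasmic reticulum also holds the repressor Opi1 away from the Ino2-Ino4 activator, so the enzymes at this branch point bear on phospholipid gene expression as well.

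Of the 10 genes, 4 fell and 2 rose in the AAE13 strain, and 4 did not pass (limma, adjusted p under 0.05 over all 4072 genes). Those that fell were CKI1, CPT1, PAH1 and CDS1, and those that rose were DGK1 and PIS1. Over all named genes 24.8% passed in either direction, 13.0% as higher and 11.8% as lower. The median log2 ratio of the 10 was -0.33, against -0.02 for all genes tested, and the median size of the log2 ratio, without its sign, was 0.58 against 0.38. A change of at least 2-fold was measured for 2 of the 10, PAH1 and CDS1, and for 13.3% of all genes. The sign was the same on every array for 7 of the 10 and for 46.4% of the 4069 genes with 4 values. With arrays 2 and 4 turned, 0 of the 10 and 13.5% of all genes had 1 sign on every array. For the 7 this follows from the turning itself, which must mix the signs of a gene that had 1 sign throughout. The calls depended on which array was left out: without array 1, 2, 3 or 4, limma called 2, 5, 3 and 2 of the 10, beside 15.3%, 19.4%, 25.7% and 10.5% of all genes.

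**Figure D1:**
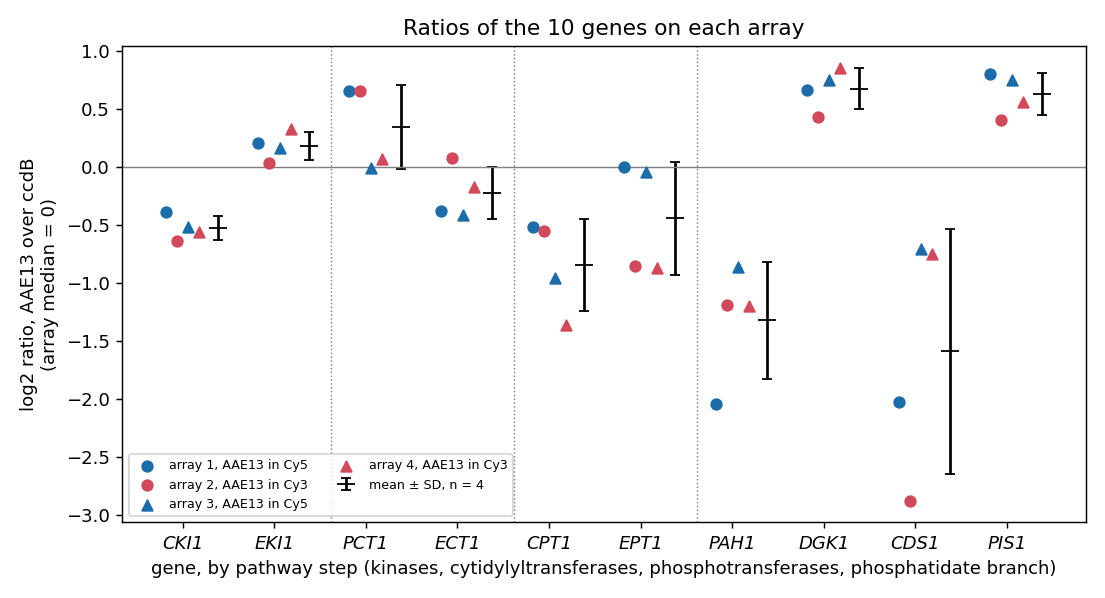
Log2 ratio of AAE13 over ccdB (vertical axis, array median at 0) for each of the 10 genes on each of the 4 arrays, with colour for the dye of the AAE13 sample and the mean ± SD beside the points. CKI1, CPT1, PAH1 and CDS1 lie below 0 and DGK1, PIS1 and EKI1 above 0 on every array, and CDS1 spreads most, from -2.87 to -0.70.

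The genes for the 2 opposed steps between phosphatidate and diacylglycerol, PAH1 and DGK1, changed in opposite directions. PAH1 encodes the phosphatidate phosphatase that makes diacylglycerol for storage lipid and for the Kennedy pathway. Its log2 ratios were -2.04, -1.19, -0.86 and -1.20 on arrays 1 to 4. All of them were below 0, and array 1 was the lowest. The mean was -1.32 ± 0.50 (SD, n = 4), or 2.50-fold lower (limma adjusted p = 0.00567), which put PAH1 at percentile 3.36 of all genes. DGK1 encodes the diacylglycerol kinase that runs the opposite step. Its log2 ratios were 0.66, 0.43, 0.75 and 0.86 on arrays 1 to 4, with array 2 the lowest and none below 0. The mean was 0.67 ± 0.18 (SD, n = 4), or 1.60-fold higher (limma adjusted p = 0.0236), at percentile 87.1. PAH1 kept its call whichever array was left out (limma adjusted p between 0.00352 and 0.0347), and DGK1 lost its call without array 1, 3 or 4 (limma adjusted p = 0.0834, 0.0556 and 0.101).

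CDS1, for the CDP-diacylglycerol synthase that draws phosphatidate into the other branch, had the lowest mean of the 10. Its log2 ratios were -2.03 and -2.87 on arrays 1 and 2, and -0.70 and -0.75 on arrays 3 and 4. The values were negative throughout but fell into a low pair and a pair nearer 0, each pair holding both dye orientations. The mean was -1.59 ± 1.05 (SD, n = 4), or 3.01-fold lower (limma adjusted p = 0.0196), and the SD lay at percentile 97.4 of all genes with 4 values. Without array 1 the mean was -1.44 and the call was lost (limma adjusted p = 0.0634). PIS1 encodes phosphatidylinositol synthase, which uses the product of Cds1. Its log2 ratios were 0.80, 0.41, 0.75 and 0.56 on arrays 1 to 4, each above 0 and lower on the arrays with AAE13 in Cy3. The mean was 0.63 ± 0.18 (SD, n = 4), or 1.54-fold higher (limma adjusted p = 0.0307). PIS1 lost its call without array 1, 3 or 4 (limma adjusted p = 0.124, 0.0773 and 0.0948). How many of all genes part as CDS1 or PIS1 did across the arrays was not counted.

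At the kinase step of the Kennedy pathway, the choline kinase gene fell and the ethanolamine kinase gene did not pass. The 4 arrays gave CKI1 log2 ratios of -0.39, -0.64, -0.52 and -0.56, in order from 1 to 4. These lay close together, with an SD lower than that of all but 3.02% of genes with 4 values. The mean was -0.53 ± 0.10 (SD, n = 4), or 1.44-fold lower (limma adjusted p = 0.0465). This call was near the threshold: it was lost without array 1, 2, 3 or 4 (limma adjusted p = 0.116, 0.149, 0.0991 and 0.14) and with all probes, named or not, in the fit (0.0504). EKI1, for the ethanolamine kinase, had log2 ratios of 0.20, 0.03, 0.17 and 0.33, all above 0. Its mean was 0.18 ± 0.12 (SD, n = 4; limma adjusted p = 0.428), with a limma 95% interval from -0.19 to 0.55.

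Neither cytidylyl transferase gene passed. PCT1, for the choline-phosphate cytidylyl transferase that sets the pace of the choline branch, had log2 ratios of 0.65 and 0.66 on arrays 1 and 2, then -0.01 and 0.07 on 3 and 4. Arrays 1 and 2 were high and arrays 3 and 4 near 0, a split that held 99.3% of the gene's variance between arrays. The mean was 0.34 ± 0.36 (SD, n = 4; limma adjusted p = 0.222), with a 95% interval from -0.10 to 0.79. ECT1, for the ethanolamine-phosphate cytidylyl transferase, had log2 ratios of -0.38, 0.07, -0.42 and -0.18. Both arrays with AAE13 in Cy5 were lower than both with it in Cy3. The mean was -0.22 ± 0.23 (SD, n = 4; limma adjusted p = 0.361), with a 95% interval from -0.62 to 0.17. For neither gene's split of the arrays was the share of all genes that part in the same way counted.

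At the phosphotransferase step, CPT1 fell and EPT1 did not pass. CPT1 encodes the enzyme that joins CDP-choline to diacylglycerol. Its log2 ratios were -0.52, -0.56, -0.96 and -1.36 on arrays 1 to 4, all negative and further from 0 on arrays 3 and 4. The mean was -0.85 ± 0.40 (SD, n = 4), or 1.80-fold lower (limma adjusted p = 0.0205), and the call was lost without array 4, at a mean of -0.68 (0.0901). EPT1 encodes a related enzyme that uses CDP-ethanolamine and also CDP-choline. Its log2 ratios were 0.00 and -0.04 on arrays 1 and 3, with AAE13 in Cy5, and -0.86 and -0.87 on arrays 2 and 4, with AAE13 in Cy3. The 2 dye orientations did not overlap and held 99.9% of the gene's variance between arrays. The share of all genes that part by dye in this way was not counted. The mean was -0.44 ± 0.49 (SD, n = 4; limma adjusted p = 0.17), with a 95% interval from -0.95 to 0.06. With a dye term in the fit EPT1 passed at the same mean (limma adjusted p = 0.0411), in a setting that called 31.3% of all genes. Probe sequences were not used here, and cross-hybridisation between CPT1 and EPT1 was not tested.

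**Figure D2:**
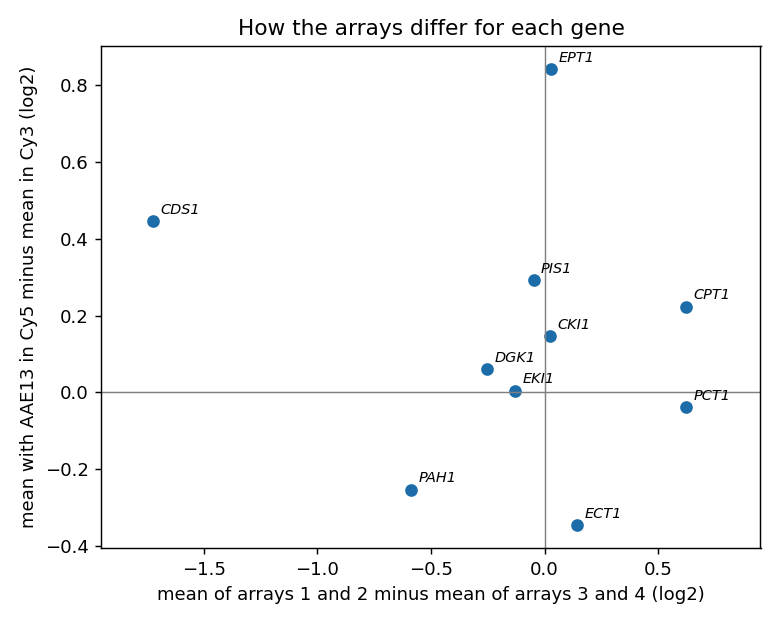
Differences between arrays for each of the 10 genes, as the mean of arrays 1 and 2 minus the mean of arrays 3 and 4 (horizontal axis, log2) against the mean with AAE13 in Cy5 minus the mean with AAE13 in Cy3 (vertical axis, log2). CDS1 stands apart along the horizontal axis at -1.72 and EPT1 along the vertical axis at 0.84.

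The 10 genes did not share 1 pattern across the arrays. The mean of arrays 1 and 2 minus that of arrays 3 and 4 was -1.72 for CDS1 (-2.45 against -0.73) and -0.59 for PAH1, but 0.62 for both CPT1 and PCT1. The mean with AAE13 in Cy5 minus that in Cy3 was 0.84 for EPT1 and 0.45 for CDS1, but -0.35 for ECT1. SDs over arrays ran from 0.10 for CKI1 to 1.05 for CDS1, with a median of 0.29, against 0.39 for all genes with 4 values. Nothing in the labels says that arrays 1 and 2 were handled apart from arrays 3 and 4, and the part that a batch plays in this split was not tested. Any 4 different values part into a lower and a higher pair. How many of all genes part by dye, or by these array pairs, was not counted.

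Ranks within an array do not depend on where its median is set, but those on arrays 2 and 4 depend on the direction in which they are read. PAH1 lay between percentiles 0.958 and 9.7 of all genes on the 4 arrays and CDS1 between 0.54 and 14.9. CPT1 lay between 5.03 and 24.5 and CKI1 between 19.7 and 29.8. On the other side, DGK1 lay between percentiles 71 and 87.3 and PIS1 between 69.8 and 90.3. With arrays 2 and 4 turned, PAH1 would lie at percentiles 90.3 and 93.1 on them, CDS1 at 99.5 and 85.2, CPT1 at 75.6 and 95, CKI1 at 78.1 and 79.8, DGK1 at 29 and 12.8, and PIS1 at 30.2 and 22.5. In the reading used here, the order of the mean log2 ratios, from lowest, was CDS1, PAH1, CPT1, CKI1, EPT1, ECT1, EKI1, PCT1, PIS1 and DGK1. CDS1 and PAH1 overlapped across the arrays, as did CKI1, EPT1 and ECT1, and DGK1 and PIS1, whereas every value of PAH1 and CDS1 lay below every value of DGK1, PIS1 and EKI1.

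Pairs of genes were set against each other within each array. This leaves the centring out, but the differences still depend on the direction in which arrays 2 and 4 are read. With these arrays turned, mean differences would be 0.07 for CKI1 minus EKI1, 0.15 for PCT1 minus ECT1 and -0.31 for CPT1 minus EPT1. With 4 arrays the exact two-sided sign-flip permutation test cannot give a p below 0.125, so none of the 6 pairs could pass 0.05. CKI1 lay below EKI1 on 4 of 4 arrays, by a difference in log2 ratio of -0.59, -0.67, -0.68 and -0.89 on arrays 1 to 4. The mean difference was -0.71 ± 0.13 (SD, n = 4; exact p = 0.125; 0.188 adjusted over the 6 pairs). PCT1 lay above ECT1 on 4 of 4 arrays, by a mean of 0.57 ± 0.34 (SD, n = 4; exact p = 0.125, adjusted 0.188). The choline gene was thus the lower of its pair at the kinase step and the higher at the cytidylyl transferase step. CPT1 lay below EPT1 on 3 of 4 arrays, by a mean of -0.40 ± 0.51 (SD, n = 4; exact p = 0.25, adjusted 0.3), with array 2 on the other side at 0.30.

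At the branch point, PAH1 lay below DGK1 by -2.70, -1.63, -1.61 and -2.05 on arrays 1 to 4. The mean difference was -2.00 ± 0.51 (SD, n = 4; exact p = 0.125, adjusted 0.188). With arrays 2 and 4 turned, PAH1 minus DGK1 would have a mean of only -0.16. PIS1 lay above CDS1 by 2.83, 3.28, 1.45 and 1.30, a mean of 2.22 ± 0.99 (SD, n = 4; exact p = 0.125, adjusted 0.188). That mean would be -0.08 with arrays 2 and 4 turned. With each array centred, the genes of these successive steps of phosphatidylinositol synthesis lay on opposite sides of 0 on every array; as deposited, both were above 0 on array 4, at 0.66 for CDS1 and 1.96 for PIS1. CDS1 and PAH1, which compete for phosphatidate, differed by a mean of -0.26 ± 0.96 (SD, n = 4; exact p = 1, adjusted 1), and only array 2, at -1.68, had CDS1 clearly lower. Without array 2 the difference turned to 0.21.

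**Figure D3:**
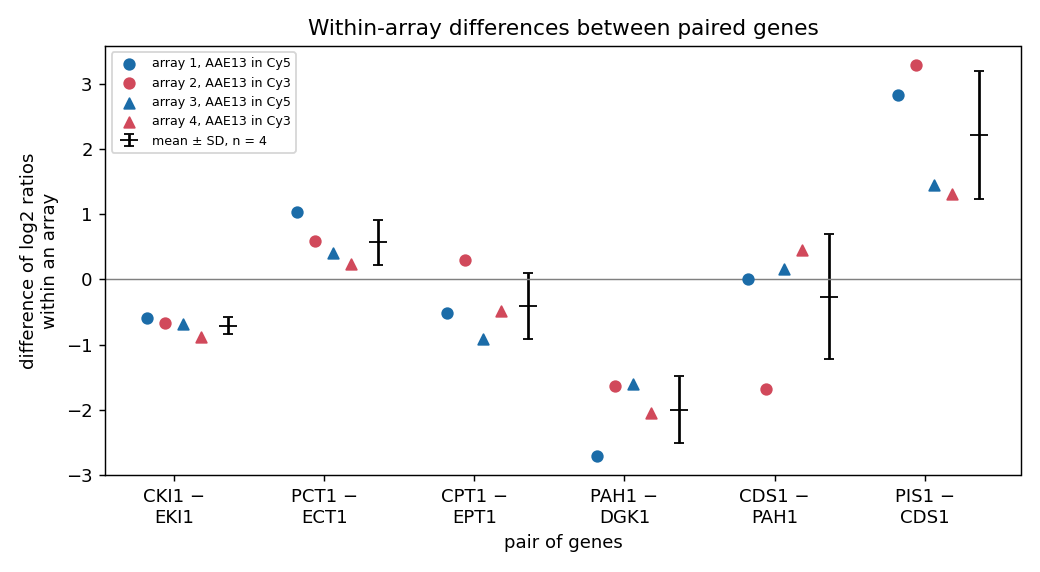
Difference between the log2 ratios of 2 genes on the same array (vertical axis) for 6 pairs, with a point for each of the 4 arrays and the mean ± SD beside them. PAH1 minus DGK1 lies between -2.70 and -1.61, PIS1 minus CDS1 between 1.30 and 3.28, and CDS1 minus PAH1 spans 0.

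The lower calls were lost without centring of the arrays and the higher ones were kept. That setting moves the median of all genes up by 0.61, which by itself favours rises over falls. The kept rises are therefore no independent check on the centring. With the deposited values not centred, DGK1 was at 1.28 and PIS1 at 1.23, and both passed (limma adjusted p = 0.0199 and 0.0259). PAH1 was then at -0.72, CDS1 at -0.98 and CPT1 at -0.24, and CKI1 turned to 0.08, and none of these passed (limma adjusted p = 0.219, 0.0869, 0.705 and 0.905). In that setting limma called 19.6% of all genes, 18.3% higher and 1.35% lower, and at an unadjusted p under 0.05 lay 1 of the 10 genes below 0 and 3 above it, near the 34% of all genes. With arrays 2 and 4 turned, limma called 0 of the 10 and 0 of all genes (0.0%), with 0 of the 10 and 154 of all genes at an unadjusted p under 0.05. The means of the 10 then lay between -0.17 and 0.42, with EPT1 the highest.

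**Figure D4:**
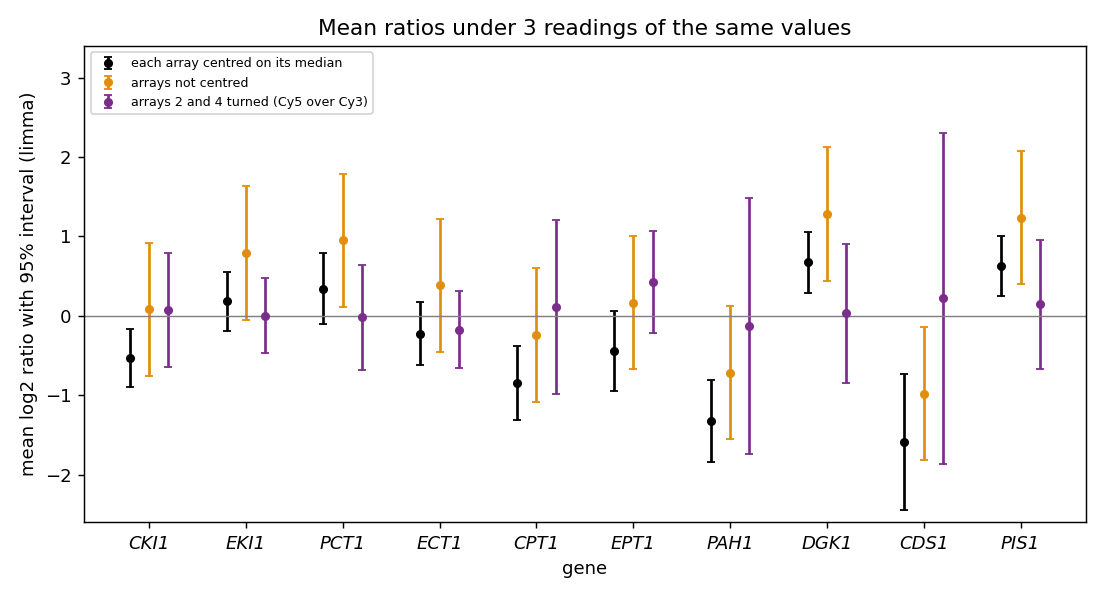
Mean log2 ratio with its 95% interval from limma (vertical axis) for the 10 genes, with each array centred on its median, with the arrays not centred, and with arrays 2 and 4 turned. DGK1 and PIS1 have intervals above 0 with and without centring, CKI1 moves from -0.53 to 0.08 without centring, and with arrays 2 and 4 turned the interval of every gene spans 0.

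Around these 10 genes, 8 lists of other phospholipid genes held 45 genes, of which 35 were measured by a named probe. Whether the other 10 lie under unnamed probes was not checked. Of the 35, 2 rose, 10 fell and 23 did not pass, a called share of 34.3% beside the 24.8% of all genes, with a median log2 ratio of -0.21. The de novo route from CDP-diacylglycerol to phosphatidylcholine held 4 of the falls among 5 genes tested, and its median was -0.79. CHO2, for the enzyme that starts the methylation of phosphatidylethanolamine, ran from -2.09 on array 4 to -1.44 on array 1, with a mean of -1.80 ± 0.30 (SD, n = 4; limma adjusted p = 0.00092). OPI3, for the enzyme that completes it, had a mean of -1.37 ± 0.54 (SD, n = 4; limma adjusted p = 0.0056). The other two that fell, named after their values were seen, were CHO1 at -0.75 (limma adjusted p = 0.0369), not called without array 1, 2 or 4 (0.0589, 0.118 and 0.124), and PSD2 at -0.79 (0.0186), not called without array 1 or 4 (0.0802 and 0.084). Without centring neither passed, with means of -0.14 and -0.19 (limma adjusted p = 0.833 and 0.775). The last steps of both routes to phosphatidylcholine thus had a gene that fell: CPT1 in the Kennedy pathway and OPI3 in the de novo route. EPT1, whose product also uses CDP-choline, did not pass. Without centring CHO2 passed at -1.19 (limma adjusted p = 0.033). OPI3 at -0.77 and CPT1 at -0.24 then did not pass (limma adjusted p = 0.186 and 0.705).

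None of the 4 measured genes that make phosphatidate passed: GPT2, SCT1, SLC1 and AYR1 had means between 0.44 and 0.71, with 3 of them at an unadjusted p under 0.05 in limma, where 39.8% of all genes were. Without centring GPT2 and SCT1 passed, at 1.11 and 1.32 (limma adjusted p = 0.0496 and 0.0161). Both also passed with a dye term (limma adjusted p = 0.0415 and 0.0392), a setting that called 31.3% of all genes. SCT1, at -0.28 on array 3, passed without that array, at 1.04 (limma adjusted p = 0.0144). Of the partners of Pah1 and the other lipid phosphatases, 1 of 5 rose and 0 fell. That gene was LPP1, for a Golgi lipid phosphatase that also accepts phosphatidate, with log2 ratios of 0.65, 0.87, 0.95 and 0.76 and a mean of 0.81 ± 0.13 (SD, n = 4; limma adjusted p = 0.0113; 0.0539 without array 4). NEM1 and SPO7, for the phosphatase that activates Pah1, had means of 0.55 ± 0.48 and -0.18 ± 0.24 (SD, n = 4) and did not pass (limma adjusted p = 0.101 and 0.46). Without centring NEM1 passed at 1.16 (limma adjusted p = 0.0388) and SPO7 turned to 0.42. NEM1 also passed with a dye term (limma adjusted p = 0.047) and without array 3 (0.037). NEM1 and SPO7 were named after their values were seen. None of the 4 measured users and suppliers of diacylglycerol passed, with means between -0.24 and 0.27 and 0 of 4 at an unadjusted p under 0.05. The same held for the 2 measured genes of the cardiolipin route, with means of -0.32 and -0.04.

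Among genes that supply choline, ethanolamine and CTP, 1 of 5 rose and 2 fell. DPL1, whose product breaks down phosphorylated long-chain bases and so releases ethanolamine phosphate, was at 1.07 ± 0.51 (SD, n = 4; limma adjusted p = 0.0133; 0.0649 without array 4). URA8, for a CTP synthase, had a mean of -0.97 ± 0.42 (SD, n = 4; limma adjusted p = 0.0138; 0.0695 without array 4), and it did not pass without centring, at -0.37 (0.547). URA7, for the other CTP synthase and named after its value was seen, also fell, at -0.69 (limma adjusted p = 0.0457), and was not called without array 1, 2, 3 or 4 (0.0739, 0.157, 0.0697 and 0.103) or without centring, at -0.079 (0.907). CTP is a substrate of Pct1, Ect1, Cds1 and Dgk1. Of the 4 measured genes of inositol supply, 1 fell: ITR1, for the inositol transporter, at -2.05 ± 0.60 (SD, n = 4; limma adjusted p = 0.00167), while the median of that list was 0.00.

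Of the 6 regulators, 0 rose and 3 fell. INO2, for the activator subunit that binds the inositol-choline response element, had a mean of -0.91 ± 0.28 (SD, n = 4; limma adjusted p = 0.0107), and at -0.31 without centring, where it did not pass (0.621). OPI1, for the repressor named above, fell to -0.70 (limma adjusted p = 0.0294) and was not called without array 2, 3 or 4 (0.0759, 0.0671 and 0.116) or without centring, at -0.09 (0.893); it too was named after its value was seen. ZAP1, for the zinc-responsive activator known to act on CKI1, EKI1, PAH1 and PIS1 in this yeast, was near 0 on array 2, at a log2 ratio of -0.04, and at -1.72, -2.51 and -2.02 on arrays 1, 3 and 4. Its mean was -1.57 ± 1.07 (SD, n = 4; limma adjusted p = 0.0215), and the call was lost without array 1 or 4 (limma adjusted p = 0.0611 and 0.102) or without centring (0.092). Of those 4 of the 10 genes named above with Zap1, CKI1 and PAH1 fell, PIS1 rose and EKI1 did not pass. The part of these regulators in the ratios of the 10 genes was not tested.

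**Figure D5:**
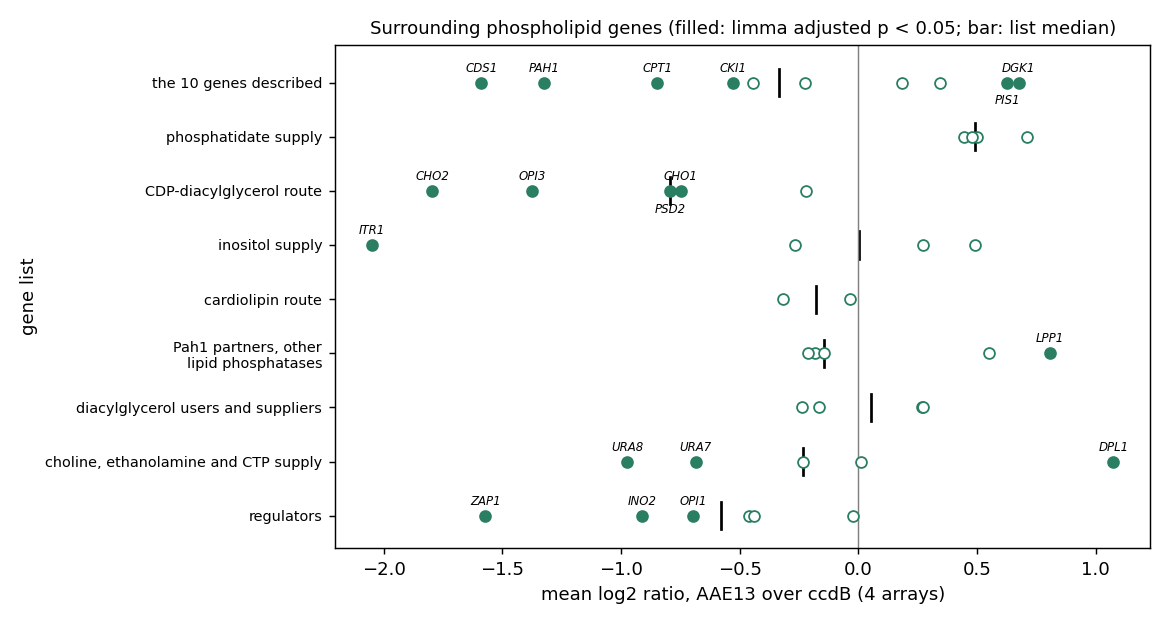
Mean log2 ratio over 4 arrays (horizontal axis) of the 10 genes and of the measured genes of 8 surrounding lists (vertical axis), filled where limma's adjusted p was under 0.05, with a bar at each list's median. The de novo route lies to the left, with a median of -0.79, and the genes of phosphatidate supply lie to the right, between 0.44 and 0.71, without a call.

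The genes whose 4 values lay closest to those of CDS1, the called gene of the 10 that changed most, were YEF3, FRE7 and CWP2, out of 4068 other genes with a value on every array. Their root mean square differences from CDS1 over the 4 arrays were 0.26, 0.27 and 0.29 on the log2 scale. YEF3, a translation elongation factor gene, had log2 ratios of -1.89, -2.95, -0.23 and -0.92. Arrays 1 and 2 lay below arrays 3 and 4, which follows from choosing genes by their closeness to CDS1 on these arrays. In the reference gene order, 11 of the 20 protein-coding genes that flank the 10 were measured by a named probe. Of those 11, 1 rose and 2 fell, a share near that of all genes. The gene that rose was KGD2, beside EKI1, with a mean of 2.16. Both that fell flank DGK1, which itself rose: NOP58 had a mean of -1.32 and RPL20B of -1.12 (limma adjusted p = 0.0486 and 0.0255). These 3 were named after their values were seen, and RPL20B has a close copy that can cross-hybridise.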

How the data were processed

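Per the labels' protocols, cDNA was primed with oligo-dT on total RNA and labelled indirectly. The deposited values are log2 ratios for 6256 probes, with 4 missing. The base of the logarithm is not stated; base 2, usual for array ratios, is an assumption behind every fold, and the range of the values (highest 16.6, at 1 probe without a gene name) does not settle it. What software and normalization the authors used is not given in the sources used here.

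Here, each array was centred on its median over all probes. The platform annotation names 1 gene for 4075 probes; 2181 unnamed probes were left out. Of the symbols, 125 were updated and 8 kept unmatched against a reference table of assembly R64. Probes of a gene were averaged (3 genes). For genes with values on at least 3 arrays, limma 3.58.1 under R 4.3.3 gave two-sided moderated tests (lmFit, eBayes) of a mean of 0, and p-values were adjusted by Benjamini-Hochberg over 4072 genes. The function was also run on simulated data, with genes drawn independently and SDs taken from values not centred. That run therefore does not measure the error of the calls in these data. An array's ratio already pairs 2 cultures. Named by rule were all 10 genes, up to 2 called genes a list with the largest change, and 3 nearest to the most changed of the 10. Outside this rule, GPT2, SCT1, SLC1, AYR1, CHO1, PSD2, URA7, OPI1, NEM1, SPO7, KGD2, NOP58 and RPL20B were named after their values were seen. Members and lists were chosen with earlier results of these data known. Figures used Python 3.11.15 and matplotlib 3.10.9.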

Additional observations from a re-analysis of the deposited data

How the results depend on the processing

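The main fit is itself paired, because each array's ratio already holds 1 culture of each strain. No further pairing is left to add. The written plan named the reading with arrays 2 and 4 turned as an alternative and did not list the other settings below. Of the 10 genes, 4 fell and 2 rose. At an adjusted p under 0.01 these were 1 and 0, with arrays 2 and 4 turned 0 and 0, and without centring 0 fell. Leaving out 1 array gave 2 to 3 falls and 0 to 2 rises. In the 8 surrounding lists 10 fell and 2 rose: 3 and 0 at 0.01, 0 and 0 with arrays turned, 2 and 5 without centring, 4 to 8 and 0 to 4 without 1 array, 4 rises at 0.1 and 5 with a dye term. Of all genes 482 fell and 529 rose: 156 and 234 at 0.01, 737 fell at 0.1, 0 and 0 with arrays turned, 55 fell without centring, 824 rose with all probes, and 188 to 537 fell and 240 to 507 rose without 1 array. A stricter threshold leaves fewer calls by construction; the cause of the other shifts was not tested. Both scalings of the arrays, array weights, robust moderation and the filter on missing values kept every call of the 10 genes.

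With arrays 2 and 4 turned the sign of these changed: CKI1 0.073, PCT1 -0.019, CPT1 0.11, EPT1 0.42, CDS1 0.22, CHO2 0.24, OPI3 0.27, ITR1 0.26, LPP1 -0.0078, URA8 0.36, CHO1 0.33, PSD2 0.11, URA7 0.19, OPI1 0.15, NEM1 -0.36, GPT2 -0.096 and SCT1 -0.58, and, of the differences, CKI1 minus EKI1 0.071, CDS1 minus PAH1 0.35 and PIS1 minus CDS1 -0.077. Without centring CKI1 at 0.081, ECT1 at 0.38, EPT1 at 0.16 and SPO7 at 0.42 changed sign. The difference CDS1 minus PAH1 ran from -0.50 to 0.21 without 1 array. Planned promoter motifs and protein alignments were not run. Signal over background is unknown for every probe.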
